A study of Mus musculus with 2 samples.

Results

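The motile cilium genes were described in the face of the mouse embryo by name, from 69 genes of 21474 protein-coding genes in the deposited tables, which list 43346 genes with an Ensembl identifier. The members were all genes named as axonemal dynein heavy or intermediate chains (Dnah, Dnaic), radial spoke head proteins (Rsph), tektins (Tekt), cilia and flagella associated proteins (Cfap) and dynein regulatory complex subunits (Drc), with the regulators Foxj1, Mcidas, Gmnc, Rfx2 and Rfx3 and the axonemal genes Ccdc39, Ccdc40 and Lrrc23. The set was put together after the levels of these libraries, and the replicate ratios of some cilium genes, had been seen, so the levels and ratios below are descriptions and carry no test. Total RNA was measured in 2 libraries of embryonic facial prominence from embryos of strain B6NCrl at embryonic day 14.5. Both belong to a single group with no treatment and no altered genotype, so the only difference the design holds is that of biological replicate 2 against biological replicate 1. The labels describe each sample as the cranioface of 1 embryo, with a collection day of its own, and give its sex as pooled male and female. Both libraries were made from 10.0 ng of RNA over a size limit, with spike-in RNAs and a SMART-seq protocol.

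A motile cilium beats because dynein motors on its outer microtubule doublets slide neighbouring doublets past each other. Outer dynein arms give power, inner arms shape the bend, and radial spokes with the central apparatus control when each motor acts. Multiciliated cells of the airway and nasal lining, the brain ventricles and the oviduct carry many such cilia, and most other embryonic cells carry a single primary cilium without dynein arms. Foxj1, a forkhead transcription factor, and the Rfx factors switch on axonemal genes, and Mcidas and Gmnc, relatives of geminin, start the multiciliated programme above them. Rfx proteins bind the X-box, an inverted repeat whose arms read GTTGCC and GGCAAC in their commonest form.

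Promoter sequence, a property that the choice of members did not use, is shown first, in windows from 250 bases before to 50 bases after each RefSeq start on build GRCm38.p6. Of the 69 members 57 had a window in the RefSeq table, with 65 windows in all. A single X-box arm, GTTGCC or GGCAAC, stood in a window of 23 of the 57 members (40.4%), against 2302 of 16317 protein-coding genes (14.1%). A facing pair, GTTNCC and GGNAAC with 0 to 3 bases between, was found in 1 member (1.75%), against 147 protein-coding genes (0.901%). The forkhead motif TGTTTAC, or GTAAACA on the other strand, was found in 4 members (7.02%), against 560 protein-coding genes (3.43%). Each motif was searched on both strands, and a single arm can be part of a pair. A match is a run of letters and does not show binding.

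Over the 65 windows 38 X-box arms were found, counting a site in each window that holds it, and 21 of them (55.3%) lay within the 120 bases upstream of the start, against 42.4% of the 2710 X-box arms in protein-coding windows. The first set shown is 4 members with X-box arms in those 120 bases whose counts were at least 2-fold higher in replicate 2. They are Cfap161, a protein inside the doublet wall, at chr7:83794840-83794959 (minus strand), the tektin Tekt1 at chr11:72361883-72362002 (minus strand), the radial spoke protein Lrrc23 at chr6:124779728-124779847 (minus strand) and the regulatory complex subunit Drc1 at chr5:30281273-30281392 (plus strand). Each line runs 5′ to 3′ on the strand of the gene and ends at the base before the start, and capitals mark X-box arms.
Cfap161: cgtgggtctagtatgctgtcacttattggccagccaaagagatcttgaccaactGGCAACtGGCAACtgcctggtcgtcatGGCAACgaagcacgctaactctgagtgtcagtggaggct
Tekt1: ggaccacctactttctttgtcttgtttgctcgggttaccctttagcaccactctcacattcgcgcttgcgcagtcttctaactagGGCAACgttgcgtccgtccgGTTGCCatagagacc
Lrrc23: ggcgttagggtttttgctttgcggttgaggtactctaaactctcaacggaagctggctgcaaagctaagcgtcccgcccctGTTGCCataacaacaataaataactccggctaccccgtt
Drc1: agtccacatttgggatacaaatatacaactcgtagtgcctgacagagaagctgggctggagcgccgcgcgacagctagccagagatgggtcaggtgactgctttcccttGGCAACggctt
Cfap161 held 3 X-box arms, all as GGCAAC, and Tekt1 held 1 in each orientation. Lrrc23 and Drc1 each showed 1 X-box arm in this stretch. The second set is 3 members with the same letters whose counts were not 2-fold apart. They are the inner junction gene Cfap20 at chr8:95434870-95434989 (minus strand), Cfap298 at chr16:90934850-90934969 (minus strand), the member with the facing pair, and the regulator Rfx2 at chr17:56831009-56831128 (minus strand).
Cfap20: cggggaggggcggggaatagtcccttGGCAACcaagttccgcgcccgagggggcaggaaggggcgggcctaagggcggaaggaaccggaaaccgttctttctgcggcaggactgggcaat
Cfap298: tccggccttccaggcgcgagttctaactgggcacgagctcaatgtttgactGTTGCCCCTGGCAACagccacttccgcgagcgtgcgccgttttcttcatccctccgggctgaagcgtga
Rfx2: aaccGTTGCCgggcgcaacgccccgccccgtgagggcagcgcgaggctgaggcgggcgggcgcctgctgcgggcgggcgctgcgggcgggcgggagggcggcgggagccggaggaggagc
In Cfap298 the capitals mark the whole pair, 2 arms that face each other with 3 bases between. A further pair of Cfap298 began 188 bases before the start, outside the stretch shown. An X-box arm was thus present in members of both kinds: in 10 of 28 members 2-fold higher in replicate 2 (35.7%) and in 13 of 25 members past the count filter that were not (52.0%). The median log2 ratio was 0.67 for the 23 members with an X-box arm and 1.21 for the 30 without one that passed the filter. The members with an X-box arm thus had a lower median ratio than those without one, a difference that was not tested.

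**Figure D1:**
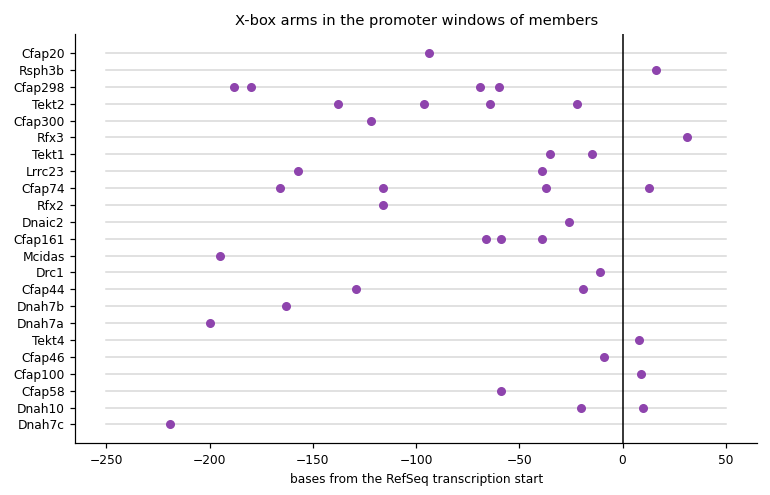
Position of each X-box arm (dots, GTTGCC on either strand) in the promoter windows of the 23 members that hold one, in bases from the RefSeq start at 0, with members ordered by mean TPM from high to low. Grey lines show the window from 250 bases before to 50 after the start. In Tekt2 and Cfap74 the same 2 sites lie in 2 overlapping windows and are drawn against the start of each.

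The 2 libraries held 37738872 expected counts for replicate 2 and 30919488 for replicate 1, of which spike-ins took 5.43% and 3.22%. Levels are given as TPM (transcript abundance corrected for length and depth), and differences as log2 of replicate 2 over replicate 1 from counts scaled for depth and composition. A ratio was formed for genes with a mean count of 10 or more, and a gene was called higher or lower at 2-fold. With 1 library on each side no test of a difference was possible, and the exact 95% intervals beside ratios cover counting error only. Replicate number and collection day cannot be told apart. In bulk tissue fewer cells of a type and less RNA per cell cannot be told apart either.

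The members spanned a wide range of levels, and most of them were low. Of the 69 genes 44 reached 1 TPM in replicate 2, against 37 in replicate 1, and the 37 also reached it in both (53.6%), where 63.9% of protein-coding genes did. Every member at 1 TPM in replicate 1 was also at 1 TPM in replicate 2, and 7 members reached it in replicate 2 alone. The summed level was 442 TPM in replicate 2, against 391 TPM in replicate 1. The 6 highest members made up 54.8% of that sum in replicate 2 and 65.6% in replicate 1. The sum of the other 63 members was 199 TPM in replicate 2, against 135 TPM in replicate 1. Nearest to the limit of 1 TPM in both libraries, Dnah7b (1.24 and 1.94 TPM in replicates 2 and 1) and Dnaic1 (2.86 and 1.35 TPM) lay inside it. Cfap299 (1.5 and 0.930 TPM) and Drc1 (2.58 and 0.720 TPM) lay outside it.

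The highest members stood at like levels in both libraries. Cfap20, which closes the inner junction of the doublet, had 106 TPM in replicate 2, against 113 TPM in replicate 1. Cfap36, an Arl3-binding protein, had 41.4 TPM in replicate 2, against 43.6 TPM in replicate 1. Cfap298, needed for dynein arm assembly, had 31.0 TPM in replicate 2, against 28.5 TPM in replicate 1. None of these 3 differed by 2-fold. The radial spoke pair Rsph3b (28.9 and 32.5 TPM in replicates 2 and 1) and Rsph3a (18.2 and 18.9 TPM) and the gene Cfap97 (16.8 and 20.3 TPM) completed the 6 members with a mean of 15 TPM or more. Below them came Rsph9, Tekt2, Cfap300, a factor for dynein arm assembly (10.4 TPM in replicate 2, against 11.2 TPM in replicate 1), and Cfap43.

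**Figure D2:**
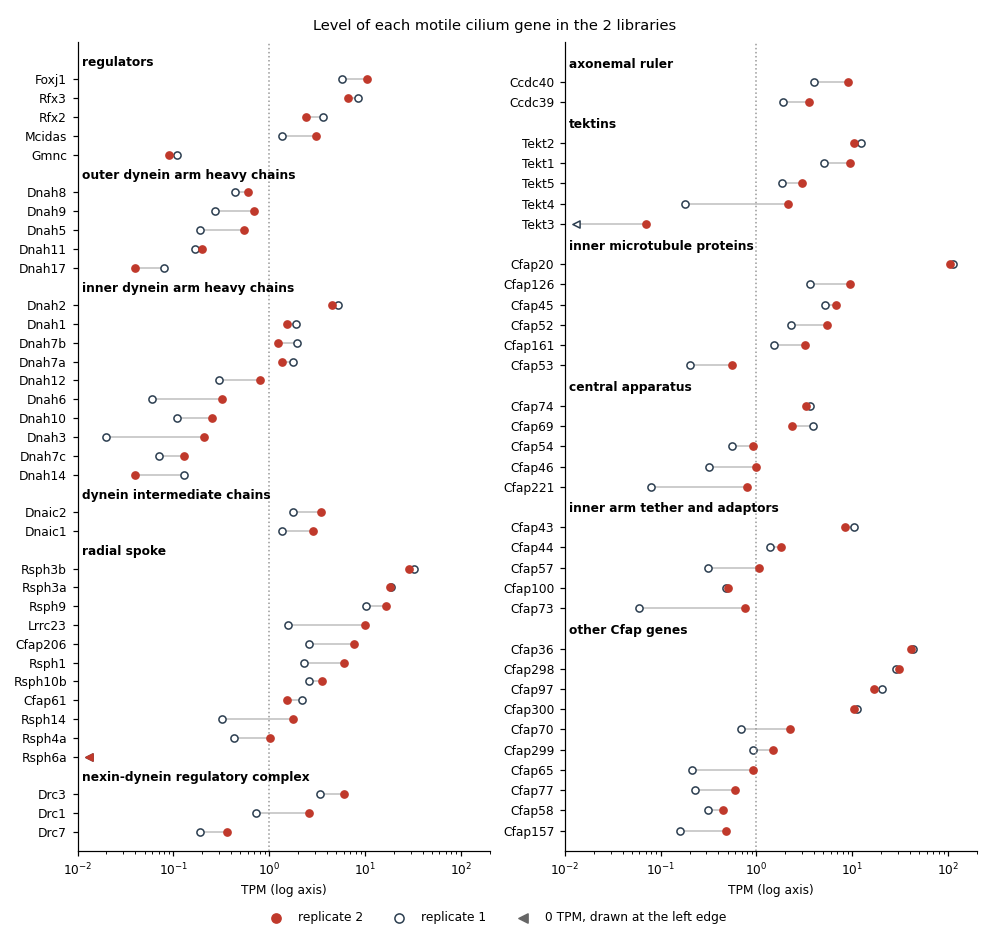
TPM of each of the 69 members on a log axis, replicate 2 as filled and replicate 1 as open circles, grouped by role; the dotted line stands at 1 TPM. Cfap20 lies near 106 and 113 TPM, Tekt4 and Dnah3 show wide gaps with replicate 2 to the right, and Rsph6a is at 0 in both libraries.

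Across the members the counts leaned to replicate 2. Of the 69 members 64 passed the count filter, and their median log2 ratio was 1.07, with quartiles of 0.30 and 1.65 and a range of -0.82 to 3.63, where the median over 15664 protein-coding genes was 0.01. Of the 64 members 37 were at least 2-fold higher in replicate 2, where 3.23% of protein-coding genes were, and 0 were 2-fold lower, where 0.996% were. Since members were chosen with some of these ratios known, nothing is read from those shares, nor from the counts by role given below. The counting interval of the ratio lay above 1 for 43 members, held 1 for 19 and lay below 1 for 2, Rfx2 and the identifier of Cfap43, most of whose level stood in a transcript of Itprip. Of the 64 members 8 passed the filter although they had under 10 counts in replicate 1, and 7 of those 8 were among the 37. Just inside the 2-fold limit stood Foxj1 (log2 ratio 1.02) and Dnah7c (1.04), and just outside it Cfap44 (0.97) and Cfap299 (0.82).

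The ratios are given by level, beside all protein-coding genes past the filter at the same level. The 6 members with a mean of 15 TPM or more had a median log2 ratio of 0.08, and 0 of them were 2-fold apart, where 0.393% of protein-coding genes were 2-fold higher. Of 36 members with a mean of 1 to 15 TPM 20 were 2-fold higher in replicate 2, with a median of 1.06, where 3.20% of protein-coding genes were. Of 27 members under 1 TPM 22 passed the filter, and 17 of those were 2-fold higher, with a median of 1.61, where 15.8% of protein-coding genes were. Of those 17 genes 5 had under 10 counts in replicate 1. The limit of 15 TPM was set after the values were seen. On the log2(TPM + 1) scale, which shrinks the ratios of low genes, 8 members were 2-fold higher, where 0.721% of protein-coding genes were, namely Ccdc40, Cfap126, Cfap206, Drc1, Lrrc23, Rsph1, Rsph14 and Tekt4.

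**Figure D3:**
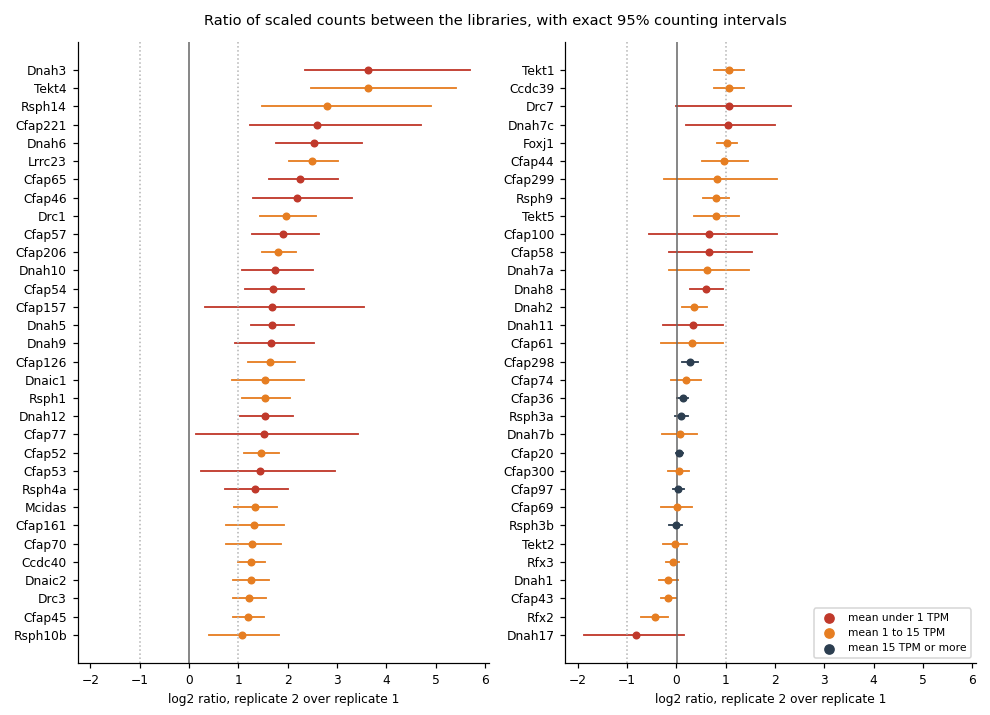
Log2 ratio of scaled counts, replicate 2 over replicate 1, for the 64 members past the count filter, sorted from high to low, with exact 95% counting intervals as lines and colour for mean level. The solid line is the median of protein-coding genes (0.01) and dotted lines are 2-fold; the ratios run from 3.63 for Dnah3 to -0.82 for Dnah17, and the 6 members at 15 TPM or more lie close to the solid line.

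Among the regulators Foxj1 and Mcidas were higher in replicate 2 and the Rfx genes were not. Foxj1 had 10.5 TPM (672 counts) in replicate 2 and 5.75 TPM (286 counts) in replicate 1, a ratio of 2.02 (interval 1.76 to 2.33). With totals in place of composition scaling its log2 ratio was 0.98, under the 2-fold limit. Mcidas, a coactivator that starts centriole amplification, had 3.11 TPM in replicate 2, against 1.37 TPM in replicate 1, a ratio of 2.53 (1.88 to 3.44). The counting intervals of both lay above 1. Rfx3 had 6.68 TPM in replicate 2, against 8.51 TPM in replicate 1, with a ratio of 0.950 (0.866 to 1.04). Rfx2 had 2.43 TPM in replicate 2, against 3.67 TPM in replicate 1, with a ratio of 0.737 (0.607 to 0.896). Both Rfx genes stayed within 2-fold. Both factors also act in cells with primary cilia, and which cells held their RNA here was not tested. Gmnc, which acts upstream of Mcidas, had 9 counts in each library (0.0900 TPM in replicate 2, against 0.110 TPM in replicate 1) and did not pass the filter. Of the 4 regulators past it 2 were 2-fold higher in replicate 2, where 3.23% of protein-coding genes were.

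The outer arm heavy chains, the long motor subunits of the outer dynein arm, all stayed under 1 TPM. Dnah8, best known from sperm, had 0.6 TPM (222 counts) in replicate 2 and 0.440 TPM (125 counts) in replicate 1. Dnah9, a chain of the distal cilium, had 0.690 TPM in replicate 2, against 0.270 TPM in replicate 1. Dnah5, a chain found along the whole cilium, had 0.550 TPM (217 counts) in replicate 2 and 0.190 TPM (58 counts) in replicate 1, a ratio of 3.22 (2.40 to 4.38). Dnah5 and Dnah9 were thus the 2 of 5 chains that were 2-fold higher in replicate 2. At a mean under 1 TPM, where all 5 lie, 15.8% of protein-coding genes were higher. Dnah17, another sperm chain, was lowest, with 0.0400 TPM (15 counts) in replicate 2 and 0.0800 TPM (23 counts) in replicate 1. Its log2 ratio of -0.82 was the lowest of the members past the filter, and its interval held 1.

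Of the 10 inner arm heavy chains 4 reached 1 TPM in both libraries, namely Dnah1, Dnah2, Dnah7a and Dnah7b, and of these Dnah1 alone did so in its own protein-coding transcripts. Dnah2, a chain of the double-headed inner arm, had 4.48 TPM (315 counts) in replicate 2 and 5.20 TPM (211 counts) in replicate 1. Its ratio of counts was 1.29 (1.08 to 1.54), and its effective length was 2760 bases in replicate 2 and 2063 bases in replicate 1. Dnah1, a single-headed inner arm chain, had 1.52 TPM in replicate 2, against 1.89 TPM in replicate 1, with a ratio of counts of 0.895 (0.788 to 1.02). Neither was 2-fold apart. Dnah3, another single-headed chain, had 64 counts (0.210 TPM) in replicate 2 and 4 counts (0.0200 TPM) in replicate 1, a log2 ratio of 3.63 (ratio interval 5.13 to 52.1), beside 3.62 for Tekt4. With a prior count of 2 these were 3.24 for Dnah3 and 3.30 for Tekt4, and on log2(TPM + 1) Dnah3 was under 2-fold, at 0.25. Dnah6 had 97 counts in replicate 2 and 14 counts in replicate 1, a log2 ratio of 2.53. Dnah10 and Dnah12 were also 2-fold higher, with log2 ratios of 1.74 and 1.54. Dnah14 had 2 counts in replicate 2 and 4 counts in replicate 1, a ratio of 0.430 with an interval of 0.0389 to 3, and did not pass the filter.

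The copies Dnah7a, Dnah7b and Dnah7c are 96.9% to 97.3% identical over aligned stretches of 12199 to 12230 bases, so reads could be split between them. Dnah7a had 1.35 TPM in replicate 2, against 1.76 TPM in replicate 1, Dnah7b had 1.24 and 1.94 TPM, and Dnah7c had 0.130 and 0.0700 TPM, in that order of libraries. The log2 ratios of their counts were 0.63, 0.07 and 1.04. Only 4.44% of the Dnah7a level in replicate 2 and 0 of it in replicate 1 stood in its protein-coding transcript, and that of Dnah7b had 0.420 TPM in replicate 2, against 0.410 TPM in replicate 1. The levels of the 3 copies are therefore uncertain one by one. In replicate 2 the deposited posterior SD of the count was 2.32 on 39.5 counts for Dnah7a, 2.59 on 151 for Dnah7b and 3.04 on 39.0 for Dnah7c. The intermediate chains, which anchor the outer arm motor, were both 2-fold higher in replicate 2. Dnaic2 had 3.49 TPM in replicate 2, against 1.78 TPM in replicate 1 (log2 ratio 1.25). Dnaic1 had 2.86 TPM and 1.35 TPM in the same order (1.55). In its own protein-coding transcripts Dnaic1 had 1.66 TPM in replicate 2, against 0.890 TPM in replicate 1.

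The radial spoke genes ranged from like levels in both libraries to wide gaps. Rsph9, a spoke head protein, had 16.6 TPM (356 counts) in replicate 2 and 10.2 TPM (175 counts) in replicate 1, a ratio of 1.75 (1.46 to 2.11). Lrrc23, a protein of the third radial spoke, had 10.0 TPM (277 counts) in replicate 2 and 1.57 TPM (42 counts) in replicate 1, a ratio of 5.68 (4.09 to 8.06). Rsph14 had 36 counts in replicate 2 and 4 counts in replicate 1, a log2 ratio of 2.80 (ratio interval 2.78 to 30.0). Of the 10 spoke genes past the filter 6 were 2-fold higher in replicate 2, where 3.23% of protein-coding genes were. Rsph1 and Rsph4a, both spoke head proteins, were among the 6, with log2 ratios of 1.54 and 1.34. So was Cfap206, which ties a spoke to inner arm dynein, at 1.81. In its own protein-coding transcripts Rsph4a was under 2-fold, at 0.86. Rsph6a, a paralog of Rsph4a known from sperm, had 0 counts in both libraries, which allows up to 0.0827 TPM in replicate 2 and up to 0.107 TPM in replicate 1 at a floor of 3 counts. Rsph3a and Rsph3b share 99.2% of 1823 aligned bases, and their levels are uncertain one by one. The deposited posterior SD of the count in replicate 2 was 35.3 on 970 counts for Rsph3a and 34.8 on 1116 counts for Rsph3b. The log2 ratios of Rsph3a and Rsph3b were 0.10 and -0.01.

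The nexin-dynein regulatory complex links doublets and restrains sliding. The 3 of its genes named Drc were 2-fold higher in replicate 2, where 3.23% of protein-coding genes were. Drc3 had 6.01 TPM in replicate 2, against 3.36 TPM in replicate 1, a log2 ratio of 1.21. Drc1, its scaffold, had 2.58 TPM (157 counts) in replicate 2 and 0.720 TPM (34 counts) in replicate 1, a ratio of 3.98 (2.73 to 5.94). Drc7 was lowest, with 25 counts in replicate 2 and 10 counts in replicate 1, and its interval of 0.998 to 5.02 held 1. Drc7 was under 2-fold with a prior count of 2 (log2 ratio 0.95) and on log2(TPM + 0.1) (0.67), as was Drc3 on that scale (0.82). The ruler proteins Ccdc39 and Ccdc40, which set the spacing of arms and spokes along the doublet, were both 2-fold higher in replicate 2. Ccdc40 had 9.12 TPM (444 counts) in replicate 2 and 4.01 TPM (159 counts) in replicate 1, a ratio of 2.40 (2.00 to 2.90). Ccdc39 had 3.52 TPM (315 counts) in replicate 2 and 1.88 TPM (130 counts) in replicate 1, a ratio of 2.09 (1.70 to 2.58).

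The tektins, filament proteins inside the doublet wall, differed among themselves. Tekt2 had 10.5 TPM (297 counts) in replicate 2 and 12.4 TPM (261 counts) in replicate 1, a ratio of 0.980 (0.827 to 1.16). Tekt1 had 9.52 TPM (315 counts) in replicate 2 and 5.04 TPM (129 counts) in replicate 1, a ratio of 2.10 (1.71 to 2.60). Tekt4 had 2.14 TPM (78 counts) in replicate 2 and 0.180 TPM (5 counts) in replicate 1, a ratio of 13.4 (5.52 to 42.5). Tekt1 and Tekt4 were 2-fold higher in replicate 2, and the intervals of Tekt1 and Tekt4 lie above that of Tekt2. Tekt5 had 2.97 TPM in replicate 2, against 1.87 TPM in replicate 1, a log2 ratio of 0.81. Tekt3 had 3 counts in replicate 2 and 0 in replicate 1, both at or under the floor of 3 counts, so no ratio is given.

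The inner microtubule proteins line the inside of the doublet wall. Of their 6 genes 5, all except Cfap20, were 2-fold higher in replicate 2, where 3.23% of protein-coding genes were. Cfap126, also called Flattop, had 9.55 TPM (179 counts) in replicate 2 and 3.60 TPM (49 counts) in replicate 1, a log2 ratio of 1.64. Cfap45 had 6.74 TPM in replicate 2, against 5.22 TPM in replicate 1, but 323 counts in replicate 2 and 121 counts in replicate 1 (log2 ratio 1.2). Its TPM and count ratios differ because the effective length, which follows the estimated mix of transcripts, was 1881 bases in replicate 2 and 1176 bases in replicate 1. Cfap52 and Cfap161 had log2 ratios of 1.46 and 1.31. Cfap53, a gene of left-right patterning, was lowest, with 23 counts in replicate 2 and 7 counts in replicate 1 (log2 ratio 1.43).

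The central apparatus genes were split between flat and steep. Cfap74 (3.33 TPM in replicate 2, against 3.61 TPM in replicate 1) and Cfap69 (2.37 and 3.85 TPM in the same order) had log2 ratios of counts of 0.19 and 0.01. Cfap54, Cfap46 and Cfap221 were 2-fold higher in replicate 2, with log2 ratios of 1.70, 2.18 and 2.59. At a mean under 1 TPM, where Cfap54, Cfap46 and Cfap221 lie, 15.8% of protein-coding genes were higher. Cfap221, a projection protein of the central pair and the lowest of these genes by mean TPM, had 31 counts in replicate 2 and 4 counts in replicate 1. Of the genes that tether or adapt inner arms, Cfap57 was 2-fold higher, with 106 counts in replicate 2 and 24 counts in replicate 1 (log2 ratio 1.90). Cfap44 had 1.80 TPM in replicate 2, against 1.39 TPM in replicate 1 (log2 ratio 0.97), and in its own protein-coding transcripts it had 117 and 43.0 counts, a ratio of 2.34 (1.64 to 3.41). Cfap73 had 16 counts in replicate 2 and 1 count in replicate 1, a ratio of 13.8 with an interval of 2.14 to 578, and did not pass the filter. Among 10 Cfap genes in no role list 4 were 2-fold higher in replicate 2, where 3.23% of protein-coding genes were. The steepest of the 4 was Cfap65, with 125 counts in replicate 2 and 22 counts in replicate 1 (log2 ratio 2.26).

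Transcript estimates split the gene counts above among transcripts, and the choice of members did not use that split. They showed where a gene's level stood in other RNAs. Of 45 members with a mean count of 50 or more 41 had the same leading transcript in both libraries (91.1%), but 12 of them have a single transcript, and of the 33 with more than 1 the leader was the same in 29. The leading transcript was not protein-coding for 6 members in replicate 2 and for 5 in replicate 1. The level of Cfap43, which holds inner arm dynein to the doublet, was mostly that of another gene. Its deposited identifier holds a transcript that the later annotation gives to Itprip, and this took 92.8% of its TPM in replicate 2, against 97.4% in replicate 1. In its own protein-coding transcripts Cfap43 had 0.340 TPM (38.6 counts) in replicate 2 and 0.0800 TPM (3 counts) in replicate 1, where the whole identifier had 8.40 and 10.4 TPM. The ratio of those counts was 11.2 (3.56 to 56.6), against 0.898 for the whole identifier.

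Dnah2 was led by a processed transcript of 386 bases, and its protein-coding transcripts held 15.1% of its TPM in replicate 2, against 10.8% in replicate 1. Their level was 0.680 TPM in replicate 2, against 0.560 TPM in replicate 1, with a ratio of counts of 1.33 (1.08 to 1.64). Ccdc40 had 33.3% of its TPM in protein-coding transcripts in replicate 2 and 31.7% in replicate 1. Foxj1, Tekt1 and Cfap161 have protein-coding transcripts only, so their levels stood wholly there by construction. Rsph9, with 2 protein-coding transcripts of 3, also stood wholly in them in both libraries. With every member counted in its own protein-coding transcripts 30 members reached 1 TPM in both libraries and the median log2 ratio was 1.28. Of 63 members past the filter 38 were 2-fold higher in replicate 2, where 3.24% of protein-coding genes were, those outside the set counted whole. These counts are part of the gene counts that were known when members were chosen, so nothing is read from that share. Exons of another gene covered over 5% of the exon bases of 7 members (Ccdc39, Cfap157, Cfap52, Cfap73, Dnah3, Rsph3a and Tekt2), and whether counting used strand is not given in the sources used here. Without those 7 members 33 of 58 were 2-fold higher in replicate 2, where 3.23% of protein-coding genes were.

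**Figure D4:**
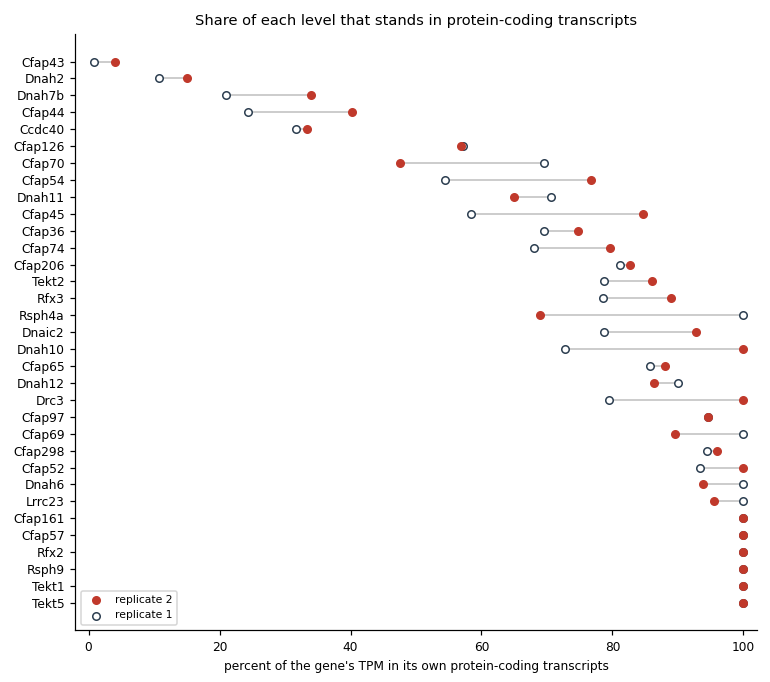
Percent of a member's TPM that stood in its own protein-coding transcripts, replicate 2 as filled and replicate 1 as open circles, for members with more than 1 transcript and a mean count of 50 or more. Cfap43 (4.04% and 0.771%) and Dnah2 (15.1% and 10.8%) lie lowest, and Tekt1, Rsph9 and Cfap161 lie at 100%. Tekt1 and Cfap161 have protein-coding transcripts only.

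Other genes of the motile cilium came from lists of the pathway that were also written with earlier results known, so nothing is read from their counts beside the 3.23% of protein-coding genes 2-fold higher and the 0.996% lower. Of 17 genes for dynein arm assembly and docking 9 were 2-fold higher in replicate 2 and 0 lower, with a median log2 ratio of 1.11. Dynlrb2, a dynein light chain, had 38.5 TPM in replicate 2, against 9.58 TPM in replicate 1. Dnaaf2, a cytoplasmic assembly factor, had 11.3 TPM in replicate 2, against 13.7 TPM in replicate 1, and the light chain Dnal1 had 5.17 and 4.58 TPM in the same order. The factor Zmynd10, the docking genes Ccdc151, Ttc25 and Armc4, the inner arm light chain Dnali1 and the factors Dnaaf1, Lrrc6 and Ccdc103 were the other genes 2-fold higher, with log2 ratios of 1.09 to 2.63. Pih1d3 had 0 counts in both libraries.

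Of 38 other axonemal genes 21 were 2-fold higher in replicate 2 and 0 lower, with a median of 1.09. The highest, the tubulin-binding gene Tppp3, had 186 TPM in replicate 2, against 151 TPM in replicate 1. Gas8, a regulatory complex subunit, had 20.4 TPM in replicate 2, against 24.8 TPM in replicate 1, and Mns1 had 17.5 and 17.2 TPM in the same order. These 3 were not 2-fold apart. Sntn, a protein of the cilium tip, had 29 counts in replicate 2 and 0 in replicate 1. With replicate 1 set at the floor of 3 counts its ratio was 8.32, and its exact counting interval began at 6.35. Tmem212 had 58 counts in replicate 2 and 2 counts in replicate 1, a ratio of 25 (6.61 to 211). Ccdc153 had 90 counts in replicate 2 and 8 counts in replicate 1 (log2 ratio 3.20), and Ttc29 had 63 and 6 counts (3.07). Hydin, a giant protein of the central apparatus, was lowest, with 0.200 TPM in replicate 2, against 0.0900 TPM in replicate 1 (log2 ratio 1.35). Among the others 2-fold higher were Meig1, Riiad1, Nme5, Lrrc46, Spag6l, Iqcg, Fam183b, Ccdc65, Spag16, Zbbx, Mdh1b, Iqca, Lrrc71 and Ak7, with log2 ratios of 1.04 to 2.64.

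Most genes listed for the multiciliated programme, some of them used in many cell types, were not 2-fold apart. Of 17 such genes 3 were 2-fold higher in replicate 2 and 1 was lower, with a median of 0.03. Ccno, which drives centriole amplification, had 6.82 TPM (309 counts) in replicate 2 and 3.25 TPM (114 counts) in replicate 1. Deup1, which builds the deuterosome, had 11.2 TPM (718 counts) in replicate 2 and 4.68 TPM (233 counts) in replicate 1. Cdc20b had 1.53 TPM (33 counts) in replicate 2 and 0.370 TPM (11 counts) in replicate 1. These 3 had log2 ratios of 1.22, 1.41 and 1.33. Ccno (chr13:112987802-112990777), Mcidas (chr13:112993845-113000394) and Cdc20b (chr13:113035111-113091195), all on the plus strand of GRCm38, lie beside each other, and each was 2-fold higher in replicate 2. The tubulin gene Tubb4b (326 TPM in replicate 2, against 373 TPM in replicate 1), Tfdp1 (114 and 137 TPM) and E2f4 (52.6 and 58.1 TPM), which are used in many cell types, were not. Rfx4 had 9 counts in replicate 2 and 16 counts in replicate 1, with an interval of the ratio from 0.189 to 1.16.

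Genes of transport in the primary cilium served as the setting for cilium genes of all cells. All 32 reached 1 TPM in both libraries, 0 were 2-fold higher and 0 lower, and their log2 ratios ran from -0.36 to 0.50 with a median of -0.03. Among all protein-coding genes past the filter 3.23% were 2-fold higher and 0.996% lower. At a mean of 15 TPM or more 0.393% were higher, and at 1 to 15 TPM 3.20%, so 0 of 32 lies near those shares. The 32 genes stood higher than the members, with a median of mean TPM of 14.7, against 1.65. The intraflagellar transport gene Ift20 had 136 TPM in replicate 2, against 140 TPM in replicate 1, Ift46 had 75.6 and 97.1 TPM, and Ift27 had 58.4 and 69.5 TPM, in that order of libraries. Bbs1, of the complex that carries membrane cargo, was lowest at 1.21 TPM in replicate 2, against 1.60 TPM in replicate 1. No test sets these lists against each other.

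**Figure D5:**
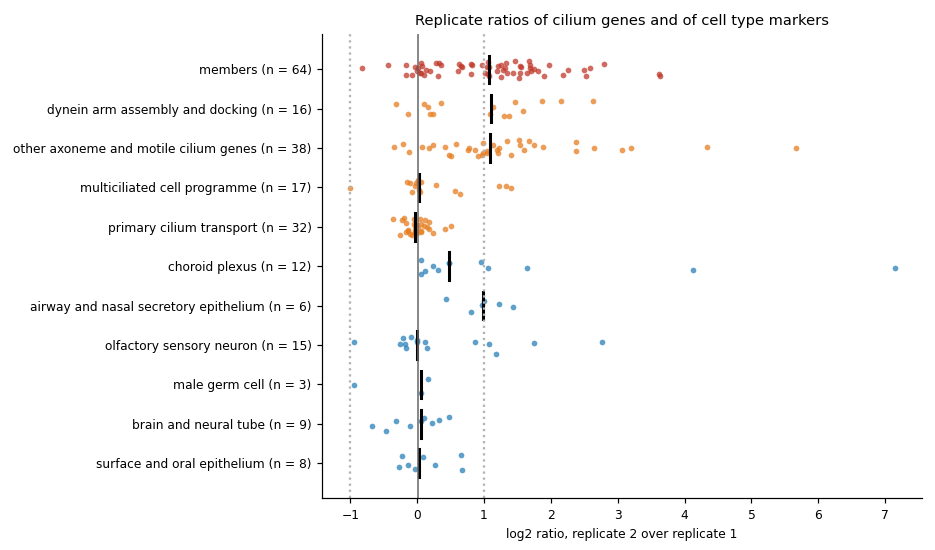
Log2 ratio, replicate 2 over replicate 1, of genes past the count filter in the members (red), the pathway lists (orange) and the marker lists of cell types (blue), with a black bar at each median. The medians are 1.07 for the members, 1.11 and 1.09 for dynein arm and other axonemal genes, -0.03 for primary cilium transport and 0.98 for airway and nasal secretory genes; Ttr is the point above 7.

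Some markers of cell types that carry motile cilia or lie beside them differed between the libraries, and others did not. Of 12 choroid plexus genes, from the brain ventricle lining, 4 were 2-fold higher in replicate 2 and 0 lower, with a median log2 ratio of 0.48. Among all protein-coding genes 3.23% were higher and 0.996% lower. At a mean under 1 TPM, where Kcne2 and Cldn2 lie, 15.8% were higher. The marker lists were written with earlier results known, so nothing is read from their counts. The list summed to 156 TPM in replicate 2, against 97.1 TPM in replicate 1, and without Ttr to 96.0 TPM in replicate 2, against 96.6 TPM in replicate 1. Ttr, its main secreted product, had 60.2 TPM (1718 counts) in replicate 2 and 0.450 TPM (10 counts) in replicate 1, a ratio of 148 (80.2 to 309). Kcne2 had 70 counts in replicate 2 and 3 counts in replicate 1, a ratio of 20.1 (6.60 to 99.8), and Folr1 and Cldn2 had log2 ratios of 1.64 and 1.06. Sostdc1 (64.0 TPM in replicate 2, against 68.7 TPM in replicate 1) and Aqp1 (15.5 and 16.6 TPM) were level, and Kl was lowest at 0.310 and 0.290 TPM. Otx2, Lmx1a, Clic6, Prlr and Slc4a5 were also under 2-fold, with log2 ratios of 0.11, 0.31, 0.48, 0.48 and 0.96. The part of choroid plexus tissue in the member ratios was not tested.

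Of 10 airway and nasal secretory genes 6 passed the filter. Of these 3 were 2-fold higher in replicate 2 and 0 lower, where 3.23% and 0.996% of protein-coding genes were. The list summed to 219 TPM in replicate 2, against 123 TPM in replicate 1. Bpifa1, a secreted protein of the nasal lining, had 134 TPM in replicate 2, against 74.7 TPM in replicate 1 (log2 ratio 1.00). Cyp2f2 had 49.0 TPM in replicate 2, against 28.0 TPM in replicate 1 (0.97), and Reg3g had 25.6 and 16.0 TPM (0.81). Bpifa1 lay at the 2-fold limit, with a ratio of 2.00 (1.88 to 2.13), and was counted as higher. Scgb3a2 and Muc5b were also 2-fold higher, with log2 ratios of 1.44 and 1.22. At a mean under 1 TPM, where Muc5b lies, 15.8% of protein-coding genes were higher. Scgb3a1 had 0 counts in both libraries, and Scgb1a1, the club cell secretoglobin, had 1 count in replicate 2 and 0 in replicate 1. The part of these cells in the member ratios was not tested.

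Of 15 olfactory neuron genes 4 were 2-fold higher in replicate 2 and 0 lower, where 3.23% and 0.996% of protein-coding genes were. At a mean under 1 TPM, where Stoml3 and Cnga4 lie, 15.8% were higher. The list had a median of 0.00 and a sum of 103 TPM in replicate 2, against 99.3 TPM in replicate 1. The 4 genes were Gng13 (21.5 TPM in replicate 2, against 11.7 TPM in replicate 1), Cnga2, Stoml3 and Cnga4, the last being the lowest at 0.280 and 0.0900 TPM. Ebf2 (29.0 and 35.2 TPM in replicates 2 and 1) and Gng8 (11.6 and 11.7 TPM) were not. Male germ cells also use many of the members, and of 12 germ cell markers 6 had 0 counts in both libraries and 1, Spaca1, reached 1 TPM in both (4.26 TPM in replicate 2, against 4.24 TPM in replicate 1). Ddx4 had 0.75 TPM in replicate 2, against 1.60 TPM in replicate 1, and Sycp3 had 0.0800 and 0.360 TPM. The brain list summed to 11.1 TPM in replicate 2, against 12.5 TPM in replicate 1, with 0 of the 9 genes past the filter 2-fold apart. Its highest genes were Slc17a6 (3.18 and 3.04 TPM), Otx1 (2.13 and 2.26 TPM) and Pax6 (1.38 and 1.97 TPM), and Neurod6 was lowest at 0.0200 and 0.0500 TPM. The facial epithelium itself was present in both libraries, where 8 of 8 markers reached 1 TPM and 0 were 2-fold apart, from Krt14 (297 TPM in replicate 2, against 300 TPM in replicate 1), Krt15 (180 and 126 TPM) and Krt5 (108 and 124 TPM) down to Trp63 (27.0 and 32.8 TPM).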

How the data were processed

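Total RNA of 2 libraries of 1 group was analysed from gene and transcript tables. Per the companion text, the authors used genome build mm10 and GENCODE M4. For the aligner, the version of the quantifier and the use of strand, nothing is given in the sources used here. The deposited expected counts are reads estimated per gene or transcript, and TPM and FPKM are the authors' values scaled for length and depth, per the file headers. The share of each transcript in its gene was deposited as a percent.

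The members, the lists of roles, pathways and cell types, and the thresholds were chosen with earlier results of these data known. Genes were named and placed by GENCODE M21, of the same build, through Ensembl identifiers stripped of their version (42462 of 43346 genes, 98.0%). Expected counts were rounded to whole numbers, and spike-ins and features without an Ensembl identifier were left out. Ratios are log2 of CPM with TMM factors from edgeR 4.0.16 and a prior count of 0.5, for genes with a mean count of 10 or more. Intervals are exact conditional binomial at the 95% level. DESeq2 1.42.0 gave size factors for an alternative. Near-copies were aligned with BLAST 2.17.0. Scripts ran in R 4.3.3 and in Python 3.11.15 with pandas 2.3.3, numpy 2.4.6, matplotlib 3.10.9 and scipy 1.17.1. The calculation of ratios and their intervals was tested on simulated counts, and the other steps were not. Alternatives changed the unit, scaling, filter, prior count, threshold or transcripts used, or left out near-copies or a library.

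Named were all regulators, rulers, tektins and near-copies, the 3 highest and the lowest of each other role, pathway and marker list, the 10 highest members, at most 10 members past 2-fold each way, members at 0 in both libraries, those nearest a limit, and listed genes past 2-fold. Genes named beyond this, among them the examples from transcripts and promoters, were chosen after their values were seen. Not every listed gene past 2-fold is reported here by name.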

Additional observations from a re-analysis of the deposited data

How the results depend on the processing

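Of 62 values recomputed under alternatives, 46 stayed within the limits set for them, 16 moved and 0 reversed. The limit for counts was wide. A change from 37 members at 1 TPM to 25 at 2 TPM stayed within it, as did one from 37 members 2-fold higher to 26 on log2(TPM + 0.1). The mean summed TPM of the members was 416 (SD 35.5, n = 2), and it was 274 in FPKM, 461 as TPM over Ensembl genes alone, 307 without Cfap20 and 364 in own protein-coding transcripts. The median log2 ratio of 1.07 was 1.03 with total counts, 0.34 on log2(TPM + 1), 0.71 on log2(TPM + 0.1), 1.21 without near-copies and 1.28 in own protein-coding transcripts. TPM scalings moved the median of protein-coding genes to -0.13 and -0.14, and the members lay 0.46 and 0.86 above it. The count of members 2-fold higher, 37, was 8 on log2(TPM + 1), 26 on log2(TPM + 0.1) and 24 at a mean count of 50. The shares of protein-coding genes were 0.721%, 2.11% and 1.49% in that order, against 3.23% in the main setting. The count of members 2-fold lower, 0, was 1 with no filter (Dnah14), where 5.05% of protein-coding genes were. Of the other motile cilium genes 33 were 2-fold higher. This count was 15 on log2(TPM + 1), 26 on log2(TPM + 0.1) and 21 at a mean count of 50, beside the same shares of protein-coding genes. The number of role lists with a median of 2-fold or more, 7, was 0 on log2(TPM + 1) and 2 on log2(TPM + 0.1). A pseudocount shrinks low levels by construction, a higher filter leaves fewer genes, and leaving out Cfap20 or near-copies changes the set. Total counts leave out the composition factors, 0.98683 for replicate 2 and 1.01335 for replicate 1, which shifts every ratio alike. The cause of the other shifts was not tested. With 1 library left out, 37 to 44 members reached 1 TPM and the sum was 391 to 442 TPM, and ratios could not be formed. Own protein-coding transcripts, removal of overlapping members and the alternatives for role lists and other cilium genes were chosen after seeing the data. No paired analysis was possible because both libraries belong to the single group. Counts under 10 limit the ratios of the lowest members most.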
